A study of Rattus norvegicus with 3 samples.

Results

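Genes whose mutations cause inherited neuropathy of the Charcot-Marie-Tooth group, and which act in Schwann cells, were followed in rat sciatic nerve. They were Gjb1, Sh3tc2, Litaf, Ndrg1, Fgd4, Mtmr2, Sbf2, Fig4, Gdap1 and Mfn2. They were taken by name, not by their values, and all 10 of 10 were found among the 22608 genes of the deposited mRNA table. All 10 also passed the level filter, a mean of at least 1 CPM over the libraries (counts per 1e6 of the library's own gene total), which 14427 genes passed. The tissue came from male Sprague-Dawley rats at day 30, in 3 libraries of 1 each. The AKBA library was crushed nerve from animals given AKBA (a boswellic acid derivative, acetyl-11-keto-beta-boswellic acid, from Boswellia resin), at a dose and for a time that the labels do not give. The model library was crushed nerve without AKBA, read as such from its title letter and the series' design because its own treatment label says only control. The sham library was nerve that was exposed and left uncrushed. The crush was made with vascular forceps, and no source used here says whether a library held 1 animal or a pool. With 1 library per group no difference has a replicate check and no test was possible, so every comparison below is one of libraries.

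A myelinating Schwann cell wraps a single axon segment in a stack of membrane, and the products of these genes keep that stack supplied and in contact. Gap junctions shorten the path across the myelin folds, endosomes sort receptors and membrane, phosphoinositide enzymes set how much membrane is added or recycled, and mitochondria fuse and divide to keep up with demand. In patients most of these genes cause demyelinating forms of the disease. MFN2 is best known for the axonal form, and GDAP1 causes both demyelinating and axonal forms.

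The labelled tissue was checked against its markers first. The 13 myelinating Schwann cell markers were all detected, with a summed level of 29340 CPM in AKBA, 33044 CPM in model and 14735 CPM in sham. Other tissues also differed between the libraries. The 22 skeletal muscle markers summed to 7533 CPM in AKBA, 990.4 CPM in model and 488 CPM in sham, the 14 adipocyte markers to 4792, 9415 and 15312 CPM, and the 16 macrophage markers to 3710, 1993 and 3060 CPM, in the same library order. Without Gpnmb and Lyz2, left out after their values were seen, the other 14 macrophage markers summed to 1412, 1558 and 1494 CPM, and over all 16 the median log2 ratio of AKBA to model was -0.03, with 8 above 0 and 8 below. The 8 mast cell markers summed to 158, 521 and 381 CPM, and their log2 ratios of AKBA to model were all 8 below 0, with 6 lower by 2-fold. Markers of vessels, sheaths and blood had median log2 ratios of model to sham above the 0.18 of all genes, at 0.92 for endothelial (4 of 12 at 2-fold), 0.89 for perineurial (2 of 6), 0.77 for smooth muscle and pericyte (3 of 10) and 0.69 for red cell genes (1 of 8). No Schwann cell, muscle, adipocyte or macrophage marker of these lists stood at 0 in any library. In bulk nerve, fewer cells of a type and less RNA per cell cannot be told apart, and the part of these shifts in the values below was not tested. The gene table held 90071899 counts in AKBA, 89505656 in model and 74184217 in sham.

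Across the 10 genes, the model library stood above the sham library at Gjb1, and the AKBA library stood above sham at Gjb1 and Sh3tc2, counting a gene as higher or lower at 2-fold or more. None of the 10 differed by 2-fold between AKBA and model. For AKBA against model, 2.69% of all genes passed 2-fold upward and 1.37% downward, for model against sham 4.52% and 1.31%, and for AKBA against sham 5.83% and 2.08%. The calls were thus 2 of 10 genes for AKBA against sham and 1 of 10 for model against sham, few to read against those shares. The median log2 ratio of the 10 genes was 0.04 for AKBA against model, beside -0.04 over all genes, and 0.51 for model against sham, beside 0.18 over all genes. For AKBA against sham it was 0.38, beside 0.16 over all genes. The comparisons with a library in common are not independent.

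**Figure D1:**
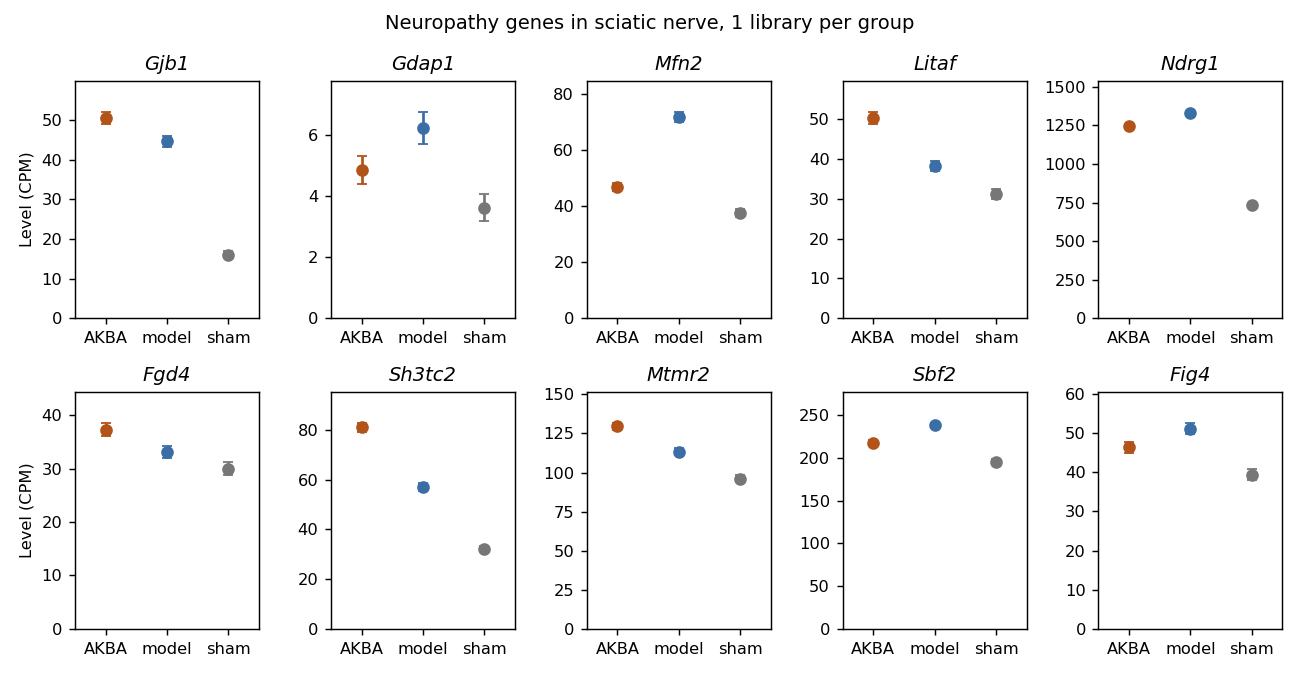
Level in CPM (vertical axis, from 0) of each of the 10 neuropathy genes in the AKBA, model and sham libraries, 1 point per library with its exact 95% counting interval. All 10 stand lowest in sham. Gjb1, Sh3tc2, Litaf, Fgd4 and Mtmr2 are highest in AKBA, whereas Mfn2, Gdap1, Ndrg1, Sbf2 and Fig4 are highest in model.

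Gjb1 encodes connexin-32 (Cx32), the gap junction protein of the uncompacted loops of peripheral myelin. It had 4548 counts in AKBA, 3994 in model and 1183 in sham, or 50.5, 44.6 and 15.9 CPM. Both crushed nerves were far above sham and close to each other. The ratio of model to sham was 2.69-fold (log2 ratio 1.43, 95% counting interval 1.34 to 1.52), and 1.28% of all genes had a higher one. The ratio of AKBA to sham was 3.04-fold (log2 ratio 1.60, interval 1.52 to 1.69). Between AKBA and model the log2 ratio was 0.17 (interval 0.11 to 0.24), which passed counting error but not 2-fold. In model against sham the median of the myelinating Schwann cell markers was 1.23 on the log2 scale, beside the 0.92 of the endothelial markers. Sox10, the transcription factor of the Schwann lineage, was the middle gene of these markers, so its 1.23 is that median itself. Of these 13 markers 8 were at least 2-fold higher in model than in sham, 12 were above 0, and Mbp was below 0 at -0.95.

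All Gjb1 counts in each library were given to a single one of the 3 RefSeq transcripts placed in the gene, XM_017601945.1, while NM_017251.2 and XM_008773255.2 had 0 counts in all 3 libraries. The gene is known to be transcribed from alternative promoters with different tissue use. The 250 bases before the gene start in the RefSeq promoter table (GRCr8, plus strand, chrX:70541595-70541844) are shown because Gjb1 carries the largest ratio to sham among the 10 genes, and whether this start is that of the counted transcript was not analysed here.
Gjb1: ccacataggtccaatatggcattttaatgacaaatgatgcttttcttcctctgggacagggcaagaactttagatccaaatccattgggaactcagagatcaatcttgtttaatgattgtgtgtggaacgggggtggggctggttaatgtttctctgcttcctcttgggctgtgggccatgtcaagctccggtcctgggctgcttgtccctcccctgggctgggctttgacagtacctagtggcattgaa
No letters are in capitals there, since none of the motifs searched on both strands was found in this window: the EGR letters GCGTGGGCG, GCGTGGGNG (which includes the first) and GNGGGGGCG, the SOX letters ACAAAG and ACAATG, the SREBP letters TCACNCCAC, the E-box CACGTG and the glucocorticoid receptor letters ACANNNTGT. Among the 33469 promoters of the table these motifs occurred in 0.478%, 1.46%, 6.14%, 16.3%, 11.1%, 0.974%, 5.59% and 5.81%, in the order named.

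Other connexins did not share one direction. Of 12 listed gap junction and pannexin genes 9 passed the level filter. In AKBA against model 1 passed 2-fold upward and 0 downward, beside 2.69% and 1.37% of all genes. The median log2 ratio was -0.21, beside -0.04 over all genes. In model against sham 1 was higher and 0 lower, beside 4.52% and 1.31%, with a median of 0.48, beside 0.18. Gjc3, the other connexin of peripheral myelin in rodents, had 34.0 CPM in AKBA, 8.33 in model and 10.8 in sham, so it was high in AKBA alone. Gja4, a connexin of arterial endothelium, had 21.5, 27.9 and 8.64 CPM in the same libraries, and was the one higher in model than in sham (log2 ratio 1.58).

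Sh3tc2 encodes an adaptor of recycling endosomes that, in mouse Schwann cells, takes part in the trafficking of the neuregulin receptors. It had 7300 counts in AKBA, 5096 in model and 2386 in sham, or 81.0, 56.9 and 32.2 CPM. The 3 libraries stepped apart, each by more than counting error. Its log2 ratio was 0.50 for AKBA against model (interval 0.45 to 0.55) and 0.80 for model against sham (interval 0.74 to 0.87), both short of 2-fold. For AKBA against sham it was 1.31 (interval 1.24 to 1.37), a 2.47-fold higher level, and 2.81% of all genes had a higher ratio. Of the 10 genes, Sh3tc2 had the highest ratio of AKBA to model.

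Among 7 of the 10 genes with an entry in the promoter table, Sh3tc2 and Fgd4 held a SOX motif in the 250 bases before the start. For Sh3tc2 (GRCr8, plus strand) a stretch of 24 bases at chr18:57686720-57686743 is shown for that match. Its capitals mark ACAATG as read on the other strand, and the first capital lies 99 bases before the start.
Sh3tc2: caaaggctgCATTGTgcattgaac
ACAATG was present in 11.1% of all promoters of that length, so 1 of 7 here is a description of the letters and no more.

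The neuregulin receptors and recycling endosome genes listed with Sh3tc2 had 13 of 14 members past the filter. None differed 2-fold in AKBA against model or in model against sham, and the medians were -0.01 and 0.37 on the log2 scale. In AKBA against sham 2 of 13 passed 2-fold upward, Erbb3 (1.21) and Erbb2 (1.12), beside 5.83% of all genes. The median was 0.28, beside 0.16 over all genes. Erbb3, the neuregulin-binding receptor of Schwann cells, had 269 CPM in AKBA, 171 in model and 116 in sham. Its partner Erbb2 had 31.3, 27.3 and 13.8 CPM. Both followed the same order of libraries as Sh3tc2. Rab11fip1, Rab11fip3 and Ehd3 of this list did too, as did Gjb1, Litaf, Fgd4 and Mtmr2. Ehd3 and Ehd1, which shape endosome tubules, went apart, with Ehd3 at 37.8, 35.04 and 18.6 CPM and Ehd1 at 81.8, 150.3 and 140.8 CPM in AKBA, model and sham.

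Litaf, a membrane protein of late endosomes and lysosomes that is also induced in macrophages, had 4534 counts in AKBA, 3416 in model and 2318 in sham, or 50.3, 38.2 and 31.2 CPM. AKBA was the highest library and sham the lowest. The log2 ratio was 0.39 for AKBA against model (interval 0.33 to 0.45), 0.28 for model against sham and 0.67 for AKBA against sham. Macrophage markers differed in the same AKBA library: against model, 5 of 16 passed 2-fold upward and 1 downward, with Gpnmb, a glycoprotein of lipid-laden macrophages, at 1102 CPM in AKBA, 47.0 in model and 527 in sham, and Csf1r, a receptor found on macrophages broadly, at 208, 278 and 261 CPM. The part of these cells in the Litaf level was not tested. The late endosome partners of Litaf had 14 of 14 members past the filter and none at 2-fold in AKBA against model or model against sham. In AKBA against model 13 of the 14 lay below 0 (median -0.12), where 42.5% of all genes lay above 0. Among them were Stam2, a sorting adaptor, at 28.1, 40.9 and 33.9 CPM and Cdip1, a relative of Litaf, at 31.3, 45.4 and 36.2 CPM. In model against sham 13 of the 14 lay above 0 (median 0.25), where 71.0% of all genes did, both with total counts. With TMM scaling 47.7% of all genes lay above 0, and the 14 were not counted under that scaling. The ubiquitin protease gene Stambp had 17.3, 20.5 and 14.2 CPM and Chmp2b, of the ESCRT-III complex, 41.3, 43.3 and 33.1 CPM.

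Ndrg1, a cytoplasmic protein abundant in myelinating Schwann cells, had 111960 counts in AKBA, 119011 in model and 54544 in sham, or 1243, 1330 and 735 CPM. Both crushed nerves lay above sham and close to each other. Its log2 ratio was 0.85 for model against sham (interval 0.84 to 0.87) and 0.76 for AKBA against sham, short of 2-fold, and -0.10 for AKBA against model. Ndrg1 had the most counts of the 10 genes in every library and so the smallest counting error. Of its relatives, Ndrg4 had 33.5, 42.7 and 21.8 CPM, Ndrg3 16.1, 20.3 and 12.3 CPM, and Ndrg2 304, 314 and 301 CPM in AKBA, model and sham, so 0 of 3 differed by 2-fold in AKBA against model or model against sham.

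Fgd4 encodes frabin, an exchange factor that activates the GTPase Cdc42 at the actin cytoskeleton. It had 3360 counts in AKBA, 2960 in model and 2224 in sham, or 37.3, 33.1 and 30.0 CPM, highest in AKBA and lowest in sham. Its log2 ratio of model to sham was 0.14 (interval 0.06 to 0.21), below the median of all genes, and it turned to -0.07, -0.06 and -0.06 with TMM, upper quartile and median-of-ratios scaling. The 12 listed exchange factors and partners of Cdc42 had a median of 0.02 for AKBA against model and -0.002 for model against sham, with none at 2-fold. Arhgef10, an exchange factor itself linked to slowed nerve conduction in people, had 188, 223 and 125 CPM, Fgd6 23.7, 18.7 and 23.8 CPM and Fgd3 15.8, 12.7 and 13.2 CPM in AKBA, model and sham.

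**Figure D2:**
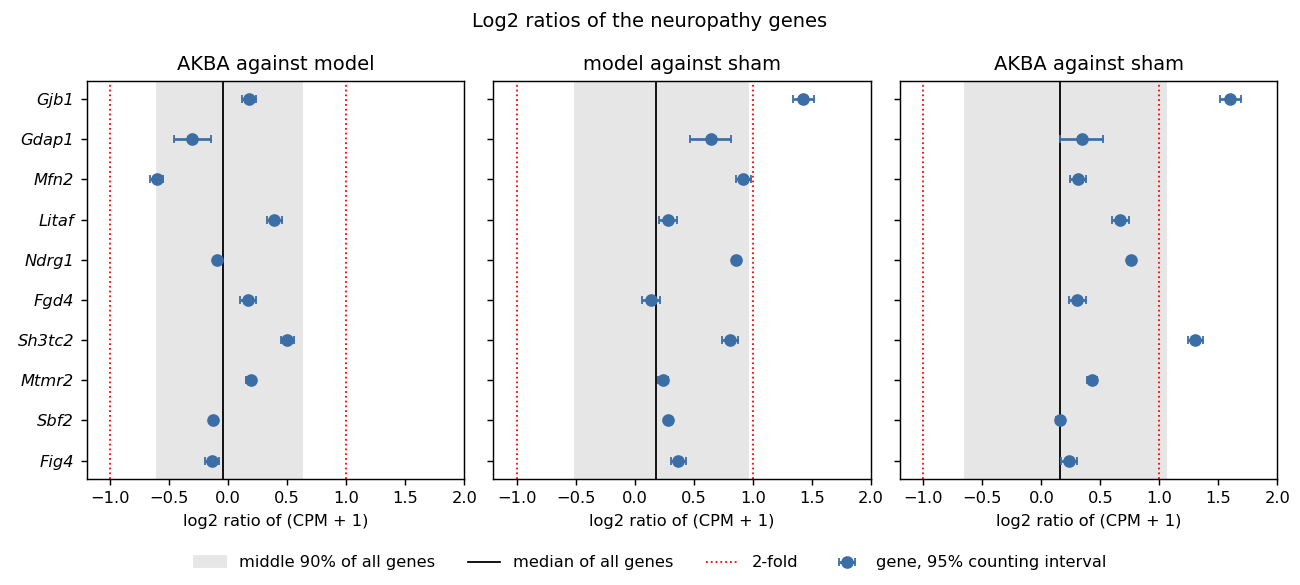
Log2 ratio of (CPM + 1) for each of the 10 genes (rows) in AKBA against model, model against sham and AKBA against sham, with 95% counting intervals, the median of all 14427 genes (black line), their middle 90% (grey) and 2-fold (dotted). Gjb1 passes 2-fold in both comparisons with sham, Sh3tc2 in AKBA against sham, and none of them does in AKBA against model.

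The 3 phosphoinositide genes differed little between libraries. Mtmr2, a phosphatase that removes the 3-phosphate of phosphoinositides, had 11667, 10140 and 7124 counts in AKBA, model and sham, or 129.5, 113 and 96.0 CPM. Sbf2, also called Mtmr13, is its catalytically inactive partner and had 218, 238 and 195 CPM. Fig4, the phosphatase of the complex that makes and turns over PI(3,5)P2 on endosomes, had 46.4, 51.1 and 39.3 CPM. Sham was lowest for each, and the log2 ratios of model to sham were 0.24, 0.28 and 0.37 for Mtmr2, Sbf2 and Fig4, beside the 0.18 of all genes. For AKBA against model they were 0.19, -0.13 and -0.14. For Sbf2 the log2 ratio of AKBA to sham, 0.15 with total counts, was -0.009 with TMM, -0.01 with upper quartile and -0.008 with median-of-ratios scaling.

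The wider phosphoinositide list had all 21 members past the filter and none at 2-fold in AKBA against model (median -0.05) or in model against sham (median 0.26, beside 0.18 over all genes). In model against sham, 20 of 21 lay above 0, as did 71.0% of all genes, both with total counts. With TMM scaling 47.7% of all genes did, and the 21 were not counted under that scaling. Pikfyve, the kinase of the Fig4 complex, had 151, 154 and 149 CPM in AKBA, model and sham, and its scaffold Vac14 25.0, 21.1 and 17.5 CPM. Mtm1, the founding myotubularin, came nearest to 2-fold in model against sham, at 39.3, 37.4 and 18.3 CPM (log2 ratio 0.99), and passed it in AKBA against sham (1.06). Mtmr7 had 3.25, 4.99 and 2.66 CPM, and Wipi1, which binds phosphoinositides in autophagy, 48.4, 69.0 and 44.1 CPM. Sbf1, the other inactive partner of Mtmr2, had 80.7, 74.6 and 55.7 CPM.

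Transcript counts could be placed through RefSeq accessions for 8 of the 10 genes with counts, and they bear on how these genes were read. For Sbf2 the placed transcripts held 99.6%, 99.8% and 99.8% of the gene count in AKBA, model and sham. XM_008759804.2 carried 92.4% of them in AKBA, 94.97% in model and 82.8% in sham (exact 95% interval 82.2 to 83.4 in sham). In sham, XM_008759800.2 and XM_008759801.2 took 636 and 796 counts, or 4.397% and 5.50%, whereas both had 0 counts in AKBA and in model, which allows up to 3 counts each. Fig4 was split as well: NM_001047096.1 had 70.2% of the placed counts in AKBA, 78.4% in model and 82.2% in sham, and XM_006256540.2 27.3%, 19.9% and 14.3%. For Mtmr2, whose placed transcripts held 69.0% to 73.3% of the gene count, XM_006242522.2 had 65.4% in AKBA, 57.0% in model and 66.7% in sham. How the authors divided reads among overlapping transcripts is not stated, and the intervals of these shares cover counting error only.

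**Figure D3:**
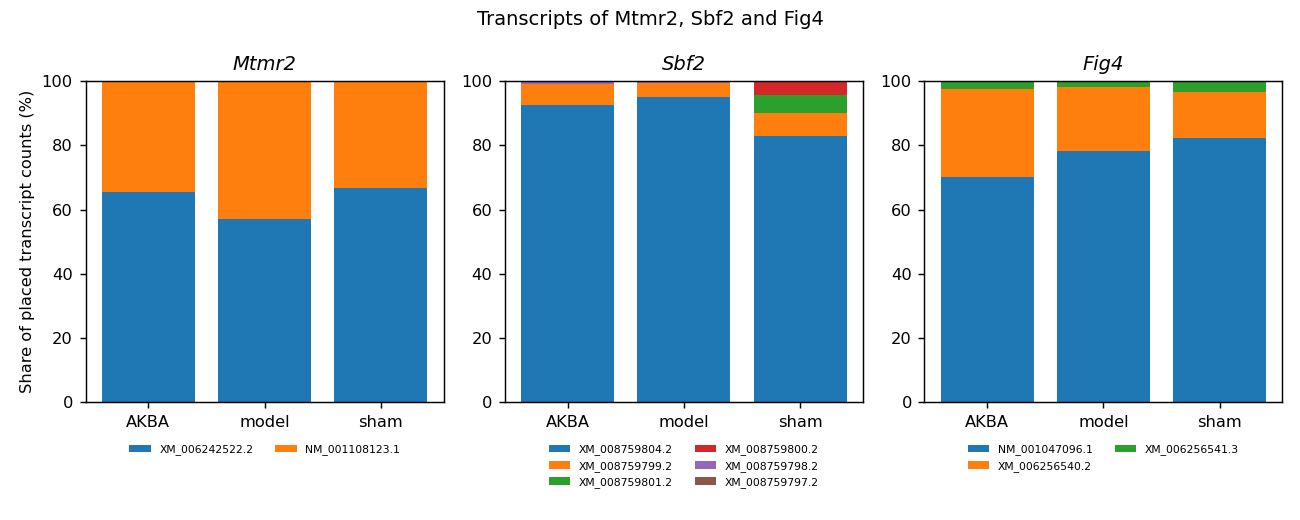
Share in percent (vertical axis) of the placed transcript counts of Mtmr2, Sbf2 and Fig4 in the AKBA, model and sham libraries, 1 colour per RefSeq transcript. XM_008759800.2 and XM_008759801.2 of Sbf2 appear in sham alone, and the share of NM_001047096.1 of Fig4 is lowest in AKBA.

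Both mitochondrial genes were highest in model, as were Ndrg1, Sbf2 and Fig4. Mfn2 encodes mitofusin-2, the outer membrane GTPase that joins mitochondria. It had 4211 counts in AKBA, 6418 in model and 2778 in sham, or 46.8, 71.7 and 37.4 CPM. Model stood apart, and AKBA lay nearer to sham. The log2 ratio was -0.61 for AKBA against model (interval -0.66 to -0.55), with 4.98% of all genes lower, and 0.92 for model against sham (interval 0.86 to 0.98), with 5.57% of all genes higher. These are the largest fold differences of the 10 genes for AKBA against model and the largest after Gjb1 for model against sham, and neither reached 2-fold. Summed over the placed transcripts, Mfn2 had the opposite signs, 0.60 and -0.71, but these transcripts held only 26.7% of the gene count in AKBA, 11.03% in model and 36.3% in sham. The skeletal muscle markers, a tissue rich in mitochondria, were highest in AKBA, where Mfn2 was lower than in model. The adipocyte markers were lower in AKBA than in model but highest in sham, where Mfn2 was lowest. The summed axon and neuron, perineurial, endothelial, red cell and myelinating Schwann cell markers had the library order of Mfn2. The axon and neuron markers summed to 70.9 CPM in AKBA, 96.0 in model and 45.6 in sham. In AKBA against model 6 of the 8 past the filter lay below 0 and 2 above. The endothelial sums were 1185, 1327 and 839 CPM, and the perineurial sums 1339, 1748 and 808 CPM. The part of any of these tissues in the Mfn2 level was not tested.

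Gdap1, an outer membrane protein linked to mitochondrial division, was the gene with the fewest counts, 436 in AKBA, 556 in model and 268 in sham, or 4.84, 6.21 and 3.61 CPM. Its log2 ratio was -0.30 for AKBA against model (interval -0.46 to -0.15), 0.64 for model against sham (interval 0.47 to 0.82) and 0.34 for AKBA against sham. The other fusion and fission genes had 20 of 21 listed members past the filter, with a median of -0.03 for AKBA against model and 0.14 for model against sham and none at 2-fold in these comparisons. Mfn1, the second mitofusin, had 40.9, 45.5 and 41.5 CPM in AKBA, model and sham, and Opa1, the fusion GTPase of the inner membrane, 134, 132 and 131 CPM. Rhot2, which tethers mitochondria to motors, had 19.4, 21.7 and 14.7 CPM, and Mtfr1 and Mtfp1, both linked to fission, 3.89, 2.44 and 3.98 CPM and 1.72, 1.03 and 0.809 CPM.

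At a lower bar of 1.5-fold, model was higher than sham in 5 of the 10 genes (Gjb1, Mfn2, Ndrg1, Sh3tc2 and Gdap1), where 15.0% of all genes were. None was lower by 1.5-fold in model, beside 3.83% of all genes. AKBA was higher than sham in 4 of 10 (Gjb1, Sh3tc2, Ndrg1 and Litaf), where 17.6% of all genes were, and lower in 0 of 10, where 5.83% were. Between AKBA and model 0 of 10 were higher, beside 5.59% of all genes, and 1 of 10 was lower, Mfn2, beside 5.38%. The Mfn2 call, at -0.61 with total counts, was lost at -0.56 with TMM scaling and without ribosomal RNA rows in the total, and at -0.57 with upper quartile and median-of-ratios scaling and a pseudocount of 5. The Gdap1 call for model against sham was lost in the same 5 settings, at 0.38 to 0.56, and the Litaf call for AKBA against sham with the 3 scalings, at 0.51 in each. The other 4 genes, Fgd4, Mtmr2, Sbf2 and Fig4, passed 1.5-fold in no comparison.

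**Figure D4:**
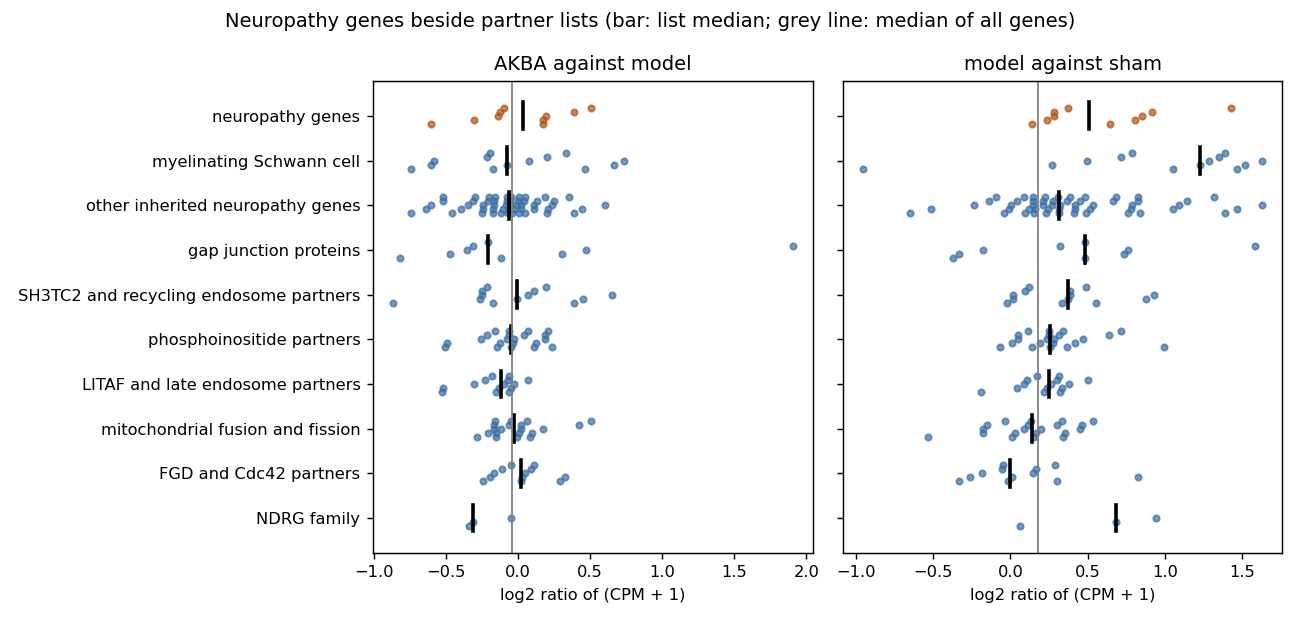
Log2 ratio of (CPM + 1) in AKBA against model and in model against sham for the 10 neuropathy genes, the myelinating Schwann cell markers and the partner lists, 1 point per gene past the level filter, list medians as black bars and the median of all genes as a grey line. In model against sham the median of the neuropathy genes, 0.51, lies between that of all genes, 0.18, and that of the myelinating Schwann cell markers, 1.23.

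Inherited neuropathy genes beyond the 10 were described as a comparison set. Of 53 measured, 7 passed 2-fold upward and 0 downward in model against sham, beside 4.52% and 1.31% of all genes. The median log2 ratio was 0.32, beside 0.18 over all genes. Between AKBA and model 0 differed by 2-fold, beside 2.69% of all genes upward and 1.37% downward. The median there was -0.07, beside -0.04. With TMM scaling 2.61% of all genes passed 2-fold upward in model against sham, and the 53 were not counted under that scaling. Among the 7 were the myelin genes Pmp22, Prx and Pmp2, the myelin transcription factor gene Egr2, the small heat shock protein gene Hspb1 and the calcium channel gene Itpr3. Egr2 had 48.3 CPM in AKBA, 41.9 in model and 19.7 in sham. Its log2 ratio of model to sham was 1.05, that of Pmp2 was 1.47, and that of Gjb1, at 1.43, lay between them.

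The genes whose pair of log2 ratios (AKBA over model, model over sham) lay nearest to that of Gjb1, by Euclidean distance over 3 libraries among 10641 named genes averaging 5 CPM or more, were Sdhc (distance 0.03), Med22 (0.04) and Gpr37l1 (0.05). They had 100.3, 90.7 and 33.4 CPM, 7.89, 6.70 and 1.81 CPM, and 90.5, 79.4 and 29.9 CPM in AKBA, model and sham. Within a distance of 0.1 there were 5 genes, and with 3 libraries likeness of this kind is a description only.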

How the data were processed

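Total RNA of sciatic nerve was depleted of ribosomal RNA with biotinylated probes, fragmented and copied from random primers, per the labels' protocols. Per the submitters' processing notes, HISAT2, StringTie, bcl2fastq 2.0, limma and DESeq2 were used, in no stated role, with the mouse build mm10, although the rows are rat genes. The genome, strand setting, filters and treatment of reads matching several places are otherwise not stated. The deposited values are counts per gene and per transcript, not normalized by the authors. The deposited column of the model library (unit other) carried 2 extra text characters after each count, which were removed. Columns were assigned through the key in the series' design. The 2 lncRNA tables were not used here.

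CPM was computed from the gene totals, and ratios as log2 of (CPM + 1) over (CPM + 1), which understates ratios of low genes. Genes averaging at least 1 CPM were kept. Intervals are exact Clopper-Pearson limits at 95% on the 2 counts, carried to the same scale, and cover only counting error, not PCR duplication or the spread between animals. Ribosomal RNA rows held 7.59%, 4.20% and 11.5% of counts in AKBA, model and sham. TMM and upper quartile factors came from edgeR 4.0.16, the rest from Python 3.11.15 with scipy 1.17.1. The calculation was checked on simulated counts. Transcripts, symbols and promoters were matched through RefSeq (GRCr8), used for names and promoter letters only. No gene length was at hand, so levels are not compared between genes. The 10 genes, the partner and marker lists and the rule for naming genes (members at 2-fold in AKBA against model or model against sham, otherwise the 2 largest ratios in each, with a few added by role after their values were seen: Pikfyve, Vac14, Sbf1, Mfn1, Opa1, Ndrg2, and the markers Sox10, Mbp, Gpnmb and Csf1r) were chosen with earlier results of these data known. One listed gene is not reported here. Scaling, library total, pseudocount, filter, fold and transcript sums were varied.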

Additional observations from a re-analysis of the deposited data

How the results depend on the processing

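No value of a gene at 2-fold changed sign or dropped below 2-fold under another scaling, library total or pseudocount. A filter cannot change the ratio of a gene it keeps. Gjb1 stayed between 1.22 and 1.48 for model against sham and between 1.41 and 1.66 for AKBA against sham. Sh3tc2 stayed between 1.14 and 1.33 for AKBA against sham. The median of the 10 log2 ratios did move. For AKBA against model it was 0.086 with TMM scaling, 0.087 without ribosomal RNA rows in the total and 0.17 at a filter of 5 CPM, which drops Gdap1. For model against sham it was 0.31 with TMM, 0.32 with upper quartile and 0.33 with median-of-ratios scaling, 0.36 at a pseudocount of 5, 0.37 at the 5 CPM filter and 0.32 with sums of transcripts. For AKBA against sham it was 0.24 with TMM, 0.23 with upper quartile and 0.24 with median-of-ratios scaling. TMM also moved the median of all genes, to -0.02 for model against sham and 0.009 for AKBA against sham. Sums of transcripts left 8 genes, without Fgd4 and Sh3tc2, and 1 higher in AKBA than in sham. At 1.5-fold the counts were 1 lower for AKBA against model, 5 higher for model against sham and 4 higher for AKBA against sham, of which the Mfn2, Gdap1 and Litaf calls were lost under the other settings given with them. Without the skeletal muscle genes in the total every count was as reported. Of 291 single values, 202 stayed within their counting interval and 89 did not. Some of the 202 could not move. The filters change no ratio of a gene they keep, and transcript sums equalled the gene count for Gjb1, Gdap1, Litaf and Ndrg1. No paired analysis was possible because each group has 1 library. Leaving out transcripts under 10 counts in every library could change no transcript share, because the transcript it dropped, of Sbf2, had 0 counts in every library. Depth limited Gdap1 most, with 268 counts in sham. The cause of these moves was not tested.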
